A study of Mus musculus with 34 samples.

Results

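The regions described here are the broad H3K27me3 peaks of unstimulated bone marrow-derived dendritic cells (BMDCs) with CTCF (CTCF-WT, below WT) and without it (CTCF-KO, below KO). They were taken by the antibody and condition that the labels give, and they number 96475 in WT and 95080 in KO, together 191555 of the 1393623 regions in the 30 peak lists of the series. All marrow came from C57BL/6 mice of 8 weeks and carried CreER, a tamoxifen-inducible Cre expressed from the Rosa26 locus in most cell types; KO marrow was CreER;CTCF fl/fl and WT marrow had CreER with wild-type Ctcf. Both were grown for 6 days with GM-CSF, and both received 4-hydroxytamoxifen on the first day, so the allele was deleted in the whole culture and not in dendritic cells alone. A second pair of H3K27me3 lists, from the same genotypes after LPS, a bacterial cell wall component, at 100 ng/ml for 3 h, was used beside the unstimulated pair where named. Each condition has 1 list with no replicate list, so no difference between WT and KO could be tested against the spread between cultures. The 95% intervals below are Wilson intervals for shares, Newcombe intervals for differences of shares and paired intervals where both lists were read at the same sites, and all of them cover counting error only.

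H3K27me3, the trimethylated form of a lysine on histone H3, is laid down by Polycomb repressive complex 2, whose catalytic subunit is Ezh2 or Ezh1, and it is read by the Cbx proteins of Polycomb repressive complex 1. In differentiated cells it lies in broad domains over silent developmental regulators such as the Hox clusters, and where it shares a promoter with H3K4me3 the promoter is called bivalent. CTCF is a zinc finger protein that binds a long asymmetric DNA motif and halts cohesin, of which SMC1 is a subunit. At Hox and other loci CTCF sites are known to lie at the borders of Polycomb domains.

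The WT and KO lists had nearly the same depth as far as the deposited values show it. The background level, read as the most frequent value behind peaks whose fold enrichment and −log10 p fit a whole number of fragments, was 1.12 fragments per base in WT and 1.11 in KO (12606 and 12694 peaks), against 0.83 and 0.98 in the WT and KO lists after LPS. The deletion was visible in the CTCF lists: 46166 of 60537 WT CTCF peaks (76.3%) had no overlapping CTCF peak in KO. All 11 dendritic cell marker promoters, among them Itgax (CD11c), Spi1 and H2-Ab1, carried an H3K4me3 peak in both conditions, and 2 of them, Flt3 and Irf8, also carried H3K27me3 in both. Of the T cell markers 1 of 6 promoters (Lck) had H3K4me3, and of the B cell markers 2 of 5 (Pax5 and Ebf1), the same in WT and KO. All 4 macrophage markers had H3K4me3 in both conditions, of the granulocyte and progenitor markers 2 of 6 (S100a8 and Prtn3), of the erythroid markers 2 of 4, and of the non-blood markers 1 of 5 (Neurod1), again with equal counts in WT and KO. H3K27me3, found at 27.1% of all protein-coding promoters in WT and 27.6% in KO, was less even at the same lists. Granulocyte and progenitor markers were marked at 4 of 6 promoters in WT and 3 in KO, with 4 genes higher in WT and 0 in KO. Macrophage markers were marked at 2 of 4 in WT and 1 in KO, with 2 genes higher in WT and 0 in KO, and erythroid markers at 0 of 4 in WT and 2 in KO. H3K27ac lay at 0 of the 6 granulocyte and progenitor markers in WT and at 2 in KO (S100a8 and Prtn3), and at 2 and 3 of the 4 macrophage markers (Fcgr1 in KO alone). The part of other cells in the results below was not tested.

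A group of CTCF sites carries the pattern that the results below return to. In WT, H3K27me3 lay on both sides of a CTCF summit and left a gap over it. In KO, the summit and the bases beside it were covered, at sites picked for this and for having no KO CTCF peak. The rise in KO was not confined to sites without one. Among the stronger 50% of CTCF sites by −log10 q, KO minus WT summit cover was 4.37 points without a KO CTCF peak. It was 9.12 points at sites that a KO CTCF peak still overlapped. After LPS these differences were -0.441 and 0.816 points. At 16 CTCF sites without a CTCF peak in KO, no base within 500 bp of the summit was covered by H3K27me3 in WT, every base there was covered in KO, and WT had H3K27me3 over at least 50% of the stretch from 1 to 5 kb on each side. The reverse pattern, full cover in WT and none in KO with KO peaks on both sides, was found at 9 of the same 46166 sites. Without the condition on the sides, the counts were 299 sites covered in KO and not in WT and 87 covered in WT and not in KO. The core of the CTCF motif, written CCANNAGNNGGC with N for any base and searched on both strands, was found within CTCF peaks at some of these sites and at edges of H3K27me3 domains described further on; the matches nearest to the summit are shown with the 12 bases of the match in capitals, read from GRCm38 (mm10) on the strand of the motif.
Cyp1b1 promoter, chr17:79715726-79715755, minus strand: cacgcgtgtCCAGCAGGTGGCagagttcct
Tpbgl promoter, chr7:99625895-99625924, plus strand: gcagccaggCCAGCAGGGGGCgcgaggtgc
Flt3 intron, chr5:147395246-147395275, minus strand: acacagaggCCAGAAGAGGGCgccaaatca
Kcnq1 intron, chr7:143110972-143111001, minus strand: ctacctttgCCACCAGAGGGCtctaaacac
Edge of the Hoxb1 domain, chr11:96379898-96379927, minus strand: tcgtgcacaCCAGAAGAGGGCatcagatat
Edge of a KO domain near Lhx1, chr11:84618744-84618773, plus strand: ctggagtggCCAGAAGAGGGCattggattc

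The first 4 lie in CTCF peaks whose summits, with 500 bp on each side, were covered in KO. The last 2 lie at domain edges of WT and KO. Most CTCF peaks of the 16 sites and of the named edges held no match. A match at Hoxa3, 479 bp from the summit, is not printed. Whole CTCF peaks were searched here, so these matches cannot be set against the shares in 101-bp windows that follow. Windows of 101 bp centred on all 60537 WT CTCF summits held this core in 27.1% of cases (26.7 to 27.5), and windows of the same length 1 kb to either side in 1.08% and 1.12%. The share was 37.1% in the strongest 10% of WT CTCF peaks by −log10 q and 13.6% in the weakest 10%. It was 25.5% at sites without a KO CTCF peak and 32.4% at sites with one. No match in a window means only that these letters are absent from it.

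H3K27me3 covered nearly as much of the genome in KO as in WT, but at partly different bases; in bulk chromatin, fewer cells with the mark and less of it per cell cannot be told apart. The WT list covered 117.0 Mb (4.29% of the assembled chromosomes) and the KO list 112.8 Mb (4.14%), a KO to WT ratio of 0.964. Of these, 60.3 Mb were covered in both, 56.7 Mb in WT alone and 52.5 Mb in KO alone. KO covered less than WT on 13 of 19 autosomes, with ratios from 0.85 on chromosome 3 to 1.07 on chromosome 16. Median peak width was 676 bp in WT and 684 bp in KO, and the widest peak measured 91011 bp in WT and 73245 bp in KO. After joining peaks less than 3 kb apart, 10221 domains of over 5 kb were found in WT and 10247 in KO, and 1715 and 1617 of over 20 kb.

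Wide peaks were shared and narrow ones mostly were not. Among peaks of over 5 kb, 3059 of 3065 in WT (99.8%) were overlapped by a KO peak by at least 1 bp, and 2903 of 2917 in KO (99.5%) by a WT peak. Among peaks of 1 to 5 kb the shares were 79.7% (79.2 to 80.1, n = 29883) and 81.0% (80.6 to 81.5, n = 29632). Among peaks under 1 kb they were 37.4% (n = 63527) and 39.3% (n = 62531). A wider peak offers more bases for an overlap of 1 bp, so the shares of bases are given too. By bases, 76.4% of the WT cover in peaks of over 5 kb was also covered in KO, against 52.2% for 1 to 5 kb and 28.1% under 1 kb. For KO the same shares were 80.3%, 54.7% and 29.9%. The difference in total cover came mainly from the widest class, which held 26.7 Mb in WT and 23.6 Mb in KO, while peaks under 1 kb held 30.1 Mb and 29.9 Mb.

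**Figure D1:**
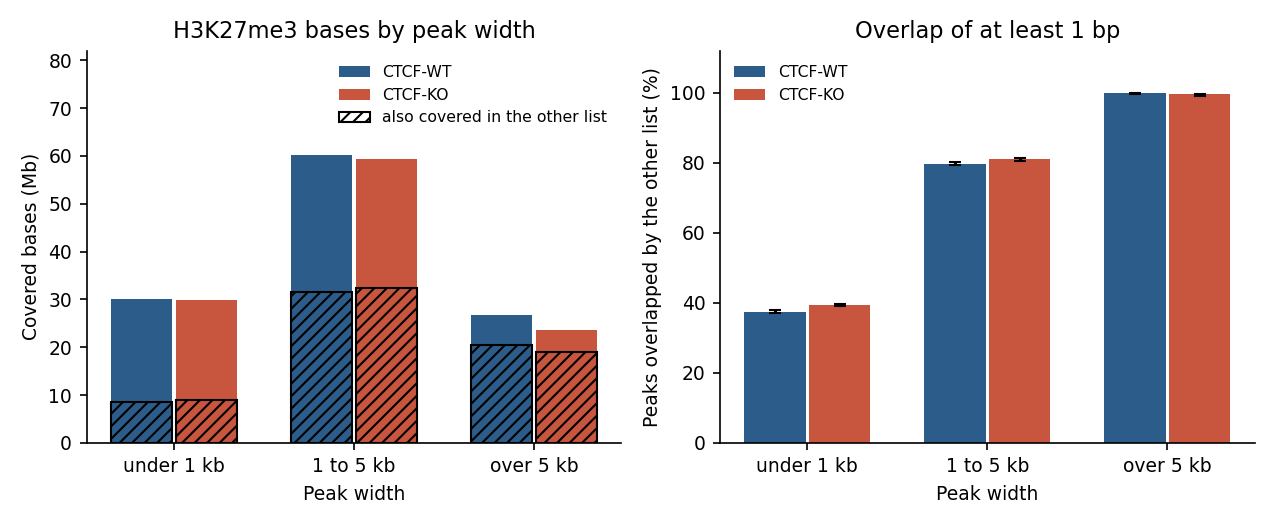
Left, bases covered by H3K27me3 peaks (Mb) in CTCF-WT and CTCF-KO by peak width, with the hatched part also covered in the other list; right, the share of peaks (%) overlapped by at least 1 bp, with 95% Wilson intervals. Nearly all peaks of over 5 kb overlap (99.8% and 99.5%), and fewer than 40% of peaks under 1 kb do.

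Overlap followed peak strength in the same way. In the weakest of 10 equal groups of WT peaks by −log10 p, 28.2% were overlapped in KO, in the fifth group 48.2% and in the strongest 80.1%; for KO peaks in WT the shares were 30.1%, 51.5% and 78.7%. Within peaks under 1 kb, where width varies less, the share still went from 26.7% in the weakest to 56.5% in the strongest WT group, and from 28.2% to 57.2% in KO. On a coarser scale the lists were closer. Over 27268 bins of 100 kb the covered share of WT and KO had a Pearson correlation of 0.93 and a Spearman correlation of 0.91, and over 272564 bins of 10 kb 0.86 and 0.76. These are descriptions across bins, which share base composition and mappability and are not replicates. For WT against WT after LPS, the correlations over 100-kb bins were 0.96 and 0.91.

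The widest domains were present in both conditions. The widest WT peak, chr12:12472681-12563691 (91011 bp, 4.20-fold enrichment), lay outside genes 256047 bp from the start of Fam49a, and 83200 of its bases were covered in KO, 84081 in WT after LPS and 43962 in KO after LPS. The widest KO peak, chr15:6938376-7011620 (73245 bp), lay near Osmr, and 73193 of its bases were covered in WT. The other wide WT peaks lay near Osmr (78092 bp, 98.1% covered in KO), Csf2, the GM-CSF gene (66672 bp, 84.1%), S1pr1 (64519 bp, 83.4%) and across Calu and Fam71f1 (58452 bp, 90.6%). The other wide KO peaks lay in Egflam (53753 bp, 98.3% covered in WT), at Muc4 (45054 bp, 93.1%), across Hoxc11, Hoxc12 and Hoxc13 (41960 bp, 97.8%) and at Enpp5 (40683 bp, 96.5%). Cover in the other list was 83.4% or more for each of these 10 peaks.

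Few wide domains were found in 1 condition alone. The 5 widest WT peaks with no KO overlap measured 5106 to 6981 bp, and 4 of them lay outside genes, nearest to Ppp3ca, Trib2, Lrrc8d and Zfat, and 1 in an exon of Ptk2. All 5 were partly covered in WT after LPS (319 to 3076 bp) and none in KO after LPS. The 5 widest KO peaks with no WT overlap measured 7147 to 14754 bp and were likewise covered in KO after LPS (2627 to 14012 bp). At 2 of them, the promoters of Flrt3 (8349 bp), a cell adhesion protein gene, and of the olfactory receptor gene Olfr1330 (7147 bp), WT after LPS had 0 and 460 bp. The other 3 lay in the immunoglobulin heavy chain variable cluster, 1 of them across Ighv1-67 and 1 across Ighv8-5. At chr12:115063106-115070269, over Ighv8-5, all 15 KO lists of the series had a peak, whatever the antibody, and none of the 15 WT lists did.

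That cluster stood apart as a whole. Over its 185 annotated variable genes (chr12:113572927-116010093), H3K27me3 covered 44.5 kb in WT and 191.4 kb in KO, and 18.8 kb and 135.5 kb after LPS. Across the genome, 34 KO H3K27me3 peaks had a peak in at least 8 of the 15 KO lists and in no WT list, and 33 of them lay in this cluster; 1 WT peak met the reverse condition, outside it. A difference between lists of every antibody is not particular to H3K27me3, and its source was not tested. The cluster held 0.191 of the 112.8 Mb of KO cover.

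Most promoters marked in one condition were marked in the other. Taking 2.5 kb either side of the start of 21938 protein-coding genes, 5937 promoters (27.1%) held H3K27me3 in WT and 6062 (27.6%) in KO, with 4983 (22.7%) in both, 954 (4.35%) in WT and not KO and 1079 (4.92%) in KO and not WT. Of the promoters marked in WT, 83.9% (83.0 to 84.8) were marked in KO. Those marked in 1 condition alone had little cover: the median was 474 bp of the 5001-bp window in WT and 546 bp in KO, against 1967 and 2012 bp for promoters marked in both. Where more than 2500 bp were covered, 99.4% of WT promoters were marked in KO and 99.0% of KO promoters in WT. Only 11 promoters were at least 50% covered in WT with 0 bp in KO, and 21 the other way.

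At the promoters with the largest differences, cover passed from most of the window to little or none. Among the 10 with more in WT, Cpvl, a carboxypeptidase gene of myeloid cells, had 4451 bp in WT and 0 in KO, and 1738 and 0 after LPS. Fam83b had 3861 and 0 bp, Mmp28, a secreted metalloproteinase gene, 3470 and 0 bp, and the Fc receptor-like gene Fcrl5 3392 and 0 bp. S100a8, which encodes an alarmin abundant in neutrophils and monocytes, had 4285 bp in WT and 457 in KO, and its neighbour S100a9 had 4178 and 1663. After LPS these 2 genes had 726 and 488 bp in WT and 0 in KO. Both are in the granulocyte and progenitor marker list, in which 4 of 6 promoters had more H3K27me3 in WT and none in KO, and S100a8 had an H3K27ac peak in KO alone. Trpa1, Padi1, Slain1, Rilpl1 and Ston2 complete the 10, with 3361 to 4775 bp in WT and 0 to 951 bp in KO.

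In the other direction, Olfr1330 had 0 bp in WT and 5001 in KO, and 460 and 1894 after LPS. Flrt3 had 0 and 4261 bp (0 and 1618 after LPS), Lrrc32, the TGF-beta docking receptor GARP, 0 and 4246 bp (0 and 0 after LPS), and Dapk2, a death-associated kinase gene, 1053 and 5001 bp (734 and 479 after LPS). Galr1, Olfr285, Ropn1, Grp, Rimbp3 and Vmn2r88 complete the 10, with 0 to 1007 bp in WT and 3777 to 5001 bp in KO. A WT CTCF peak lay in the promoter window of 5 of these 10 genes (Olfr285, Flrt3, Ropn1, Dapk2 and Rimbp3) and of 1 of the 10 with more cover in WT (Ston2), against 29.5% of all promoters. After LPS, KO had more cover than WT at 4 of the 10 genes with more in KO (Olfr1330, Olfr285, Flrt3 and Vmn2r88). It had less at all 10 genes with more in WT. The KO list after LPS covered 0.33 times the bases of the WT list after LPS.

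Developmental regulators were marked nearly throughout in both conditions, against 27.1% of all protein-coding promoters in WT and 27.6% in KO. All 39 Hox promoters were marked in WT and 37 in KO, and the 2 without KO peaks, Hoxb4 and Hoxb3, had 662 and 355 bp in WT. Hoxa9, Hoxb1, Hoxc10 and Hoxc12 were fully covered, 5001 bp, in both. Median cover over the Hox list was 3769 bp in WT and 3843 in KO, with 17 genes higher in KO and 15 in WT. Of 101 other developmental transcription factor genes 100 were marked in WT and 101 in KO. The 1 exception was Sox3, on chromosome X, with 0 and 506 bp, and the median cover was 3763 and 3370 bp. Otx2, a regulator of forebrain development, had 5001 bp in both, Hand1 5001 and 4903, Tbx20 4321 and 5001, and Cdx2 4291 and 5001. Promoters in this list with both H3K27me3 and H3K4me3 numbered 54 in WT and 63 in KO, and 54 and 63 was also the number with H3K4me3.

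Transcription factors of other blood lineages were marked in WT at 11 of 20 promoters and in KO at 14, against 27.1% and 27.6% of all genes. Pax5, which fixes B cell identity, had 5001 bp in both, Lef1 4316 and 4013, Tal1 4322 and 3422, and Eomes 4093 and 3627. The 3 marked in KO alone had short cover: Klf1, the erythroid factor, 877 bp, Runx3 169 bp and Pou2af1 29 bp. Myeloid and dendritic cell factors were marked at 4 of 18 promoters in each condition, near the share over all genes. Zbtb46, a factor of conventional dendritic cells, had 610 bp in WT and 1853 in KO, and Irf8 541 and 426. Irf4 had 505 bp in WT and 0 in KO, and Runx1 0 and 170.

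Inflammatory response genes were marked at 11 of 36 promoters in WT and 8 in KO, against 27.1% and 27.6% of all genes. Among them 10 had more bases in WT and 2 in KO, while over all genes 3389 had more in WT and 3561 in KO. The list holds genes that the study reported as changed in KO, among them Il6, Il12a, Il12b, Irak2, Trim25, Chst3 and Aldh1a2. It was thus not chosen independently of these data, and its counts cannot be read as a property of inflammatory genes. The granulocyte and macrophage markers given above had more H3K27me3 in WT as well, at 4 of 6 and 2 of 4 promoters. Il12a, which encodes a subunit of interleukin 12, had 4471 bp in WT and 1649 in KO, and 1876 and 0 after LPS. Ch25h, the cholesterol hydroxylase gene, had 2302 and 1260 bp, and Cxcl1 1379 and 752. Chst3 (1323 bp), Acod1, the itaconate-producing enzyme gene (1023 bp), Cxcl10 (532 bp) and Cd40 (520 bp) were marked in WT with 0 bp in KO. Nos2, the inducible nitric oxide synthase gene, had 0 bp in WT and 1461 in KO, and Aldh1a2, which makes retinoic acid, 1296 and 1623. All of these but Nos2 had an H3K4me3 peak in both conditions.

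Genes of the Polycomb machinery and of H3K27 demethylation were marked at 10 of 32 promoters in WT (31.3%) and 11 in KO (34.4%), near the 27.1% and 27.6% of all genes. Cbx2 had 1807 and 1947 bp, Cbx8 1862 and 1556, Rybp 1391 and 1638, and Bmi1 1580 and 1135. Rnf2, the ubiquitin ligase of Polycomb repressive complex 1, had 0 bp in WT and 850 in KO, Phf19 0 and 71, and Pcgf6 103 and 0. The same 3 of 7 cell cycle inhibitor promoters were marked in both conditions, each with more in KO: Cdkn2a 2648 and 2979 bp, Cdkn2b 2171 and 3440, and Cdkn1c 1043 and 1251.

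Imprinted genes were marked at 18 of 32 promoters in WT and 16 in KO, against 27.1% and 27.6% of all genes. Zdbf2 (3916 and 3995 bp), Rasgrf1 (4188 and 3360), Grb10 (3644 and 3483) and Phlda2 (3492 and 3489) were covered in both. Sgce had 2009 bp in WT and 0 in KO. Peg3 and Usp29, whose starts lie so close together that they share a peak, had 1276 bp in WT and 0 in KO, and Ins2 had 287 and 0. The Ins2 window lay at the start of its longest transcript, chr7:142743381, in an annotated span that reaches to chr7:142678656. Its value does not describe any start elsewhere in that span. Peg12 (506 bp) and Gnas (339 bp) were marked in KO alone. Of 57 clustered protocadherin promoters, where CTCF is known to set promoter choice, 16 were marked in each condition (28.1%) and 14 in both, close to the share over all genes. Pcdhga11 had 3598 bp in WT and 4216 in KO, Pcdhgb6 3177 and 3574, Pcdhgb7 2932 and 3410, and Pcdhgc3 2715 and 3565. H3K4me3 lay at 7 of the 57 in WT and 2 in KO. Ribosomal protein promoters, which are active in most cells, were marked at 5 of 81 in WT and 2 in KO, below the share over all genes.

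**Figure D2:**
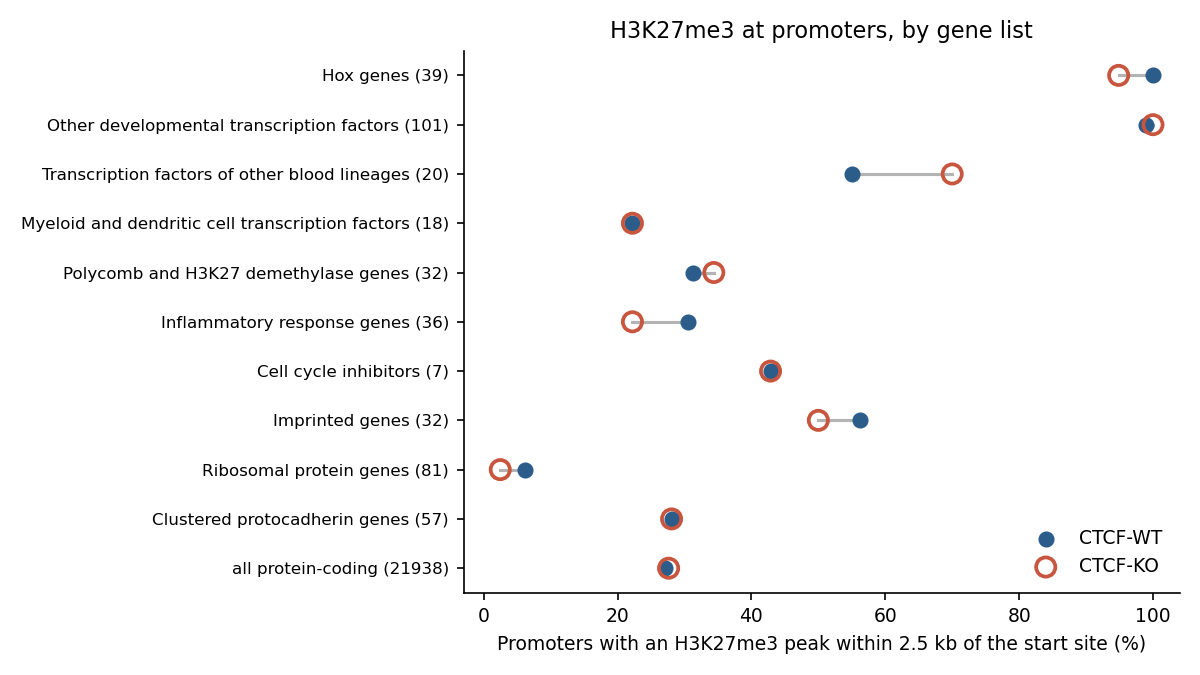
Share of promoters (%) with an H3K27me3 peak within 2.5 kb of the start site, by gene list, with the number of genes in parentheses; filled points CTCF-WT, open circles CTCF-KO. Hox and other developmental genes lie between 94.9% and 100% in both conditions, and among the lists drawn, which leave out the short cell type marker lists, the widest gap is 11 against 14 of 20 for factors of other blood lineages.

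Promoters marked in 1 condition alone also differed in their other marks. An H3K27ac peak, a mark of active promoters and enhancers, lay in WT at 12.3% (11.4 to 13.2) of promoters with H3K27me3 in both conditions, at 34.3% (31.3 to 37.4) of those marked in WT alone, at 30.9% (28.2 to 33.7) of those marked in KO alone and at 56.4% of unmarked ones. A WT CTCF peak lay at 33.2% (30.4 to 36.04) of promoters marked in KO alone and at 25.5% (22.8 to 28.3) of those marked in WT alone, against 27.4% in both and 30.2% in neither. H3K4me3 lay in WT at 45.1% of promoters marked in KO alone, 51.9% of those marked in WT alone and 50.2% of those marked in both.

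The same difference at CTCF held over all peaks. Of 43566 KO peaks with no WT overlap (median width 451 bp), 8.17% (7.92 to 8.43) overlapped a WT CTCF peak, and of 45825 WT peaks with no KO overlap (median 449 bp), 3.94% (3.77 to 4.12) did. For WT SMC1 the shares were 4.40% and 1.55%. Peaks found in both lists, which were wider (median 1082 bp in WT), overlapped a WT CTCF peak in 9.64% of cases. H3K4me1 went the other way: 12.5% of WT peaks without KO overlap held a WT H3K4me1 peak, and 7.03% of KO peaks without WT overlap a KO one. Median GC content was 40.2% in WT peaks without KO overlap and 42.6% in KO peaks without WT overlap. Promoters made up 4.93% and 5.64% of these peaks, and regions outside genes 60.6% and 59.1%.

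At the edges of H3K27me3 peaks, WT CTCF peaks were no more frequent than farther out in WT. Of 65896 edges of WT peaks of 1 kb or more, 15.3% had a WT CTCF peak within 2 kb, against 14.5% of peak centres, 15.3% of points 10 kb outside and 15.1% of points 20 kb outside. In KO the shares were 17.9% at edges, 18.0% at centres, and 15.2% and 15.1% outside. Peaks of over 5 kb showed a wider split: in WT 16.7% (15.8 to 17.7) of edges and 11.3% (10.2 to 12.5) of centres had a WT CTCF peak nearby, and in KO 19.7% (18.7 to 20.7) of edges and 20.7% (19.3 to 22.2) of centres. In wide domains the interval of the centres thus lay below that of the edges in WT, while in KO the intervals of edges and centres overlapped. Points 10 and 20 kb outside these wide peaks stood at 15.9% and 15.2% in WT and at 16.8% and 17.0% in KO. In WT the edges were thus near the points outside and the centres below them. In KO both edges and centres lay above the points outside.

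Beyond an edge, the cover in the other condition differed with CTCF in opposite directions for WT and KO edges. In KO, the 2 kb outside a WT edge were touched by H3K27me3 at 74.2% of edges with a WT CTCF peak and 66.5% of edges without, a difference of 7.72 percentage points (6.77 to 8.66). In WT, the 2 kb outside a KO edge were touched at 64.5% with CTCF and 71.7% without, a difference of -7.16 points (-8.11 to -6.21). Over 5 kb the differences were 3.72 and -4.45 points. Splitting by the fate of the CTCF peak, KO covered on average 36.6% of the 2 kb beyond WT edges with CTCF. The value was 34.9% where the CTCF peak was absent in KO and 39.7% where one was kept, against 28.8% at edges without CTCF. Beyond KO edges, WT covered on average 30.2% where the CTCF peak was absent in KO and 22.6% where one was kept. At KO edges without CTCF it covered 33.8%, so the difference was larger at sites that kept a CTCF peak.

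Single domains are shown for edges with a CTCF peak in WT and not in KO beyond which the other list covered the most; they were picked for that cover and do not bear on the difference between edges with and without CTCF. At the WT domain over Hoxb1 (chr11:96353612-96380311, 26700 bp), the 5 kb beyond its right edge had 2506 bp covered in WT and 5000 in KO. The CTCF summit lay 297 bp from that edge, inside the domain. Beyond the left edge of a domain in Prkca (56164 bp) the values were 4313 bp in WT and 5000 in KO. A CTCF site at H2-Q1 lay near an edge in both lists, each time inside the domain, so that both domains ran across it. The WT domain over H2-Q1 and H2-Q2 (19687 bp) had 3075 bp beyond its left edge in WT and 5000 in KO. The KO domain over the same site (20497 bp) had 3675 bp beyond its right edge in KO and 5000 in WT. The KO domain near Lhx1 (21892 bp) had 4067 bp beyond its left edge in KO and 5000 in WT, and that in Gata4 (18750 bp) 4079 and 5000. An edge here is where a called peak ends, and at all 10 edges of this kind that were named by rule the next peak of the same list began within 5 kb.

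The lists also differed at the CTCF summit itself, a comparison chosen after the values were seen. H3K27me3 covered the summits of the strongest 10% of WT CTCF peaks in 2.21% of cases in WT (1.87 to 2.62) and in 13.0% in KO (12.1 to 13.8, n = 6054). The mean cover 5 and 10 kb to either side was 8.63% in WT and 8.26% in KO, so the summit stood at 0.257 times its surroundings in WT and at 1.57 times in KO. Over all 60537 summits, 3346 (5.53%) were covered in KO and not in WT and 1285 (2.12%) in WT and not in KO. Among the strongest 10% these counts were 673 and 22, while 10 kb to the right of the same summits they were 213 and 249.

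**Figure D3:**
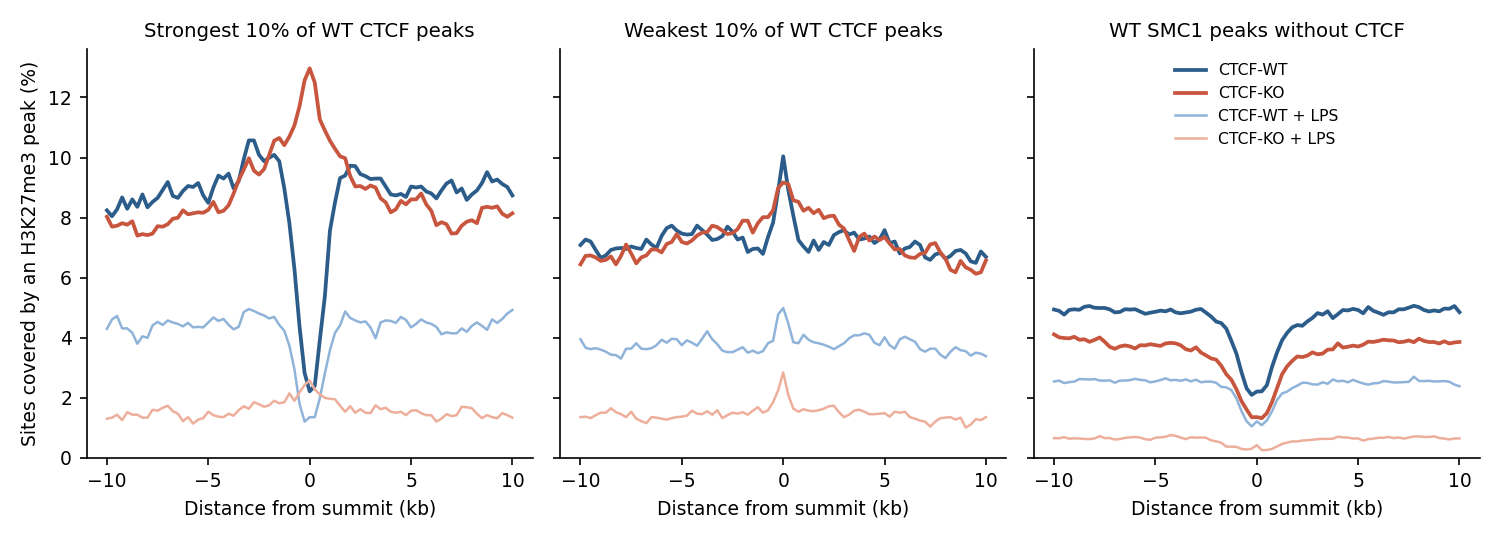
Share of sites (%) covered by an H3K27me3 peak against the distance from the summit (kb), for the strongest and weakest 10% of WT CTCF peaks and for WT SMC1 peaks without CTCF, in each of the 4 H3K27me3 lists. At the strongest CTCF summits the WT line falls to 2.21% and the KO line stands at 13.0%; at SMC1 peaks without CTCF both lines dip.

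The size of the difference followed the strength of CTCF binding. In the 3 weakest of 10 groups, the summit was covered in 8.14% to 10.04% of cases in WT and in 8.42% to 9.17% in KO, above the surroundings in both. Read at the same sites, KO minus WT was -0.876 points (-1.56 to -0.187) in the weakest group, 0.281 (-0.390 to 0.951) in the second and 0.198 (-0.478 to 0.874) in the third. It was 0.826 points (0.192 to 1.46) in the fourth, and the interval lay above 0 in each stronger group. In the fifth group the shares were 5.73% and 6.94%, in the seventh 3.54% and 8.14%, and in the ninth 2.40% and 10.9%. The surroundings differed by at most 0.37 points between the lists in any group. The KO share thus lay above its surroundings in every group, by factors from 1.09 to 1.57, while in WT the factor went from 1.39 in the weakest group to 0.257 in the strongest.

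**Figure D4:**
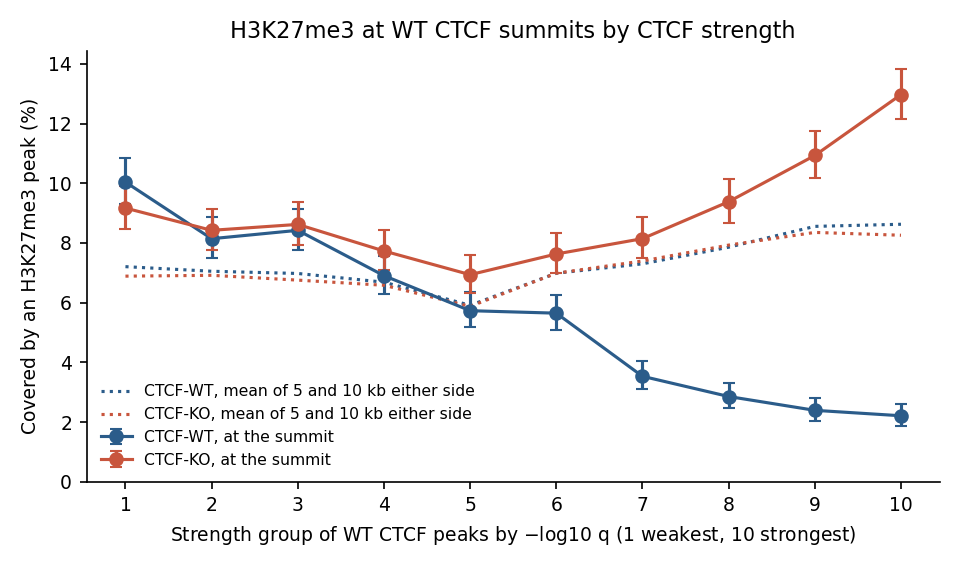
Share of WT CTCF summits covered by an H3K27me3 peak (%) in 10 equal groups of CTCF peaks by −log10 q, in CTCF-WT and CTCF-KO, with 95% Wilson intervals; dotted lines give the mean 5 and 10 kb to either side. WT is higher in the weakest group (10.04% against 9.17%), and the lines part with rising strength, to 2.21% in WT and 13.0% in KO in the strongest.

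Within the stronger 50% of CTCF sites, KO had the higher share in each subset read before LPS. Those without a KO CTCF peak were covered in 4.03% of cases in WT and 8.39% in KO (n = 16790), and those that kept one in 2.46% and 11.6% (n = 13479). Kept means only that a KO CTCF peak overlapped, and the study reported CTCF binding as lost or strongly reduced at every site. The kept sites also reached a higher −log10 q in WT, up to 2052 against 214.8, so the 2 sets differ in strength. Away from promoters the shares were 3.04% and 9.32%, at promoters 5.21% and 13.0%, without H3K27ac 3.76% and 11.1%, and with H3K27ac 0.819% and 2.05%. With a WT SMC1 peak they were 2.87% and 9.89%, and without one 5.80% and 9.40%. WT SMC1 peaks without CTCF had a dip in both lists, at 0.451 times the surroundings in WT and 0.351 times in KO, and H3K4me3 summits without CTCF stood at 0.908 and 0.856 times. After LPS, where KO had far less cover in all, the strongest 10% of CTCF summits were covered in 1.35% of cases in WT and 2.58% in KO, which is 0.30 and 1.79 times the surroundings. Over the stronger 50% of sites the shares after LPS were 1.65% and 1.77%, a difference of 0.119 points (-0.0507 to 0.289), with ratios to the surroundings of 0.411 and 1.33. In other sets WT had the higher share after LPS: KO minus WT was -0.862 points (-0.9997 to -0.725) over all summits and -1.84 points (-2.06 to -1.63) over the weaker 50%. It was also negative, -0.441 points (-0.680 to -0.202), at the stronger sites without a KO CTCF peak, and 0.816 points (0.579 to 1.05) at those that kept one. The surroundings of all summits were covered at 3.74% in WT and 1.24% in KO after LPS.

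Gaps between neighbouring H3K27me3 peaks, read from the same lists and also chosen after the values were seen, differed in the same direction. Of gaps of up to 1 kb in WT that held a summit of the stronger 50% of CTCF peaks, 56.0% (49.98 to 61.8, n = 268) were fully covered in KO, against 24.9% of gaps with no CTCF summit (n = 18201), a difference of 31.0 points (25.03 to 36.9). For gaps of 1 to 2 kb the shares were 24.9% and 9.52%, and for 2 to 5 kb 3.94% and 1.07%. In the reverse direction, KO gaps of up to 1 kb were fully covered in WT in 7.12% of cases with a CTCF summit (n = 365) and in 29.1% without (n = 17253), a difference of -22.0 points (-24.3 to -18.8). After LPS, WT gaps of up to 1 kb were filled in KO in 10.5% of cases with CTCF (n = 124) and 4.81% without, and KO gaps in WT in 16.7% (n = 60) and 45.7%.

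Among the 16 sites introduced above, those with the strongest CTCF peaks lay 45835 bp from 4930522H14Rik, 8939 bp from the start of Barx1, a homeobox gene of tooth and stomach development, in introns of Rasgef1b and of the polarity gene Pard3, and at the promoter of Cyp1b1, a cytochrome P450 gene. Within 500 bp of the summit all 5 had 0 bp in WT and 1001 in KO. After LPS the WT list had 836, 0, 0, 0 and 365 bp there, and the KO list 129, 0, 0, 1001 and 0 bp, so the pair of lists after LPS shared the pattern at Pard3 alone among these 5. Within 5 kb, H3K27me3 covered 6282 bp in WT and 10001 in KO at Pard3, 8058 and 10001 at Cyp1b1 and 6438 and 8774 at Barx1, but 6883 and 6275 at the site far from 4930522H14Rik and 5394 and 4140 in Rasgef1b. The 500 bp either side of the summit were thus covered in KO at every site by selection, while the cover within 5 kb was higher in KO at 3 of the 5. The KO peak over the summit ran past the WT gap on both sides at Pard3 (-5042 to 11197 bp) and Cyp1b1 (-7391 to 7798 bp). At Barx1 (-653 to 5665 bp) it did so on the right. There it also ran over a second WT CTCF peak (665 to 2419 bp), which kept a KO CTCF peak (1618 to 1800 bp). Near 4930522H14Rik (-623 to 789 bp) and in Rasgef1b (-1969 to 739 bp) part of the WT gap stayed uncovered. Of the sites with a printed motif, Flt3 had 5446 and 6977 bp within 5 kb, Tpbgl 5969 and 7669, and Kcnq1 5179 and 6166.

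**Figure D5:**
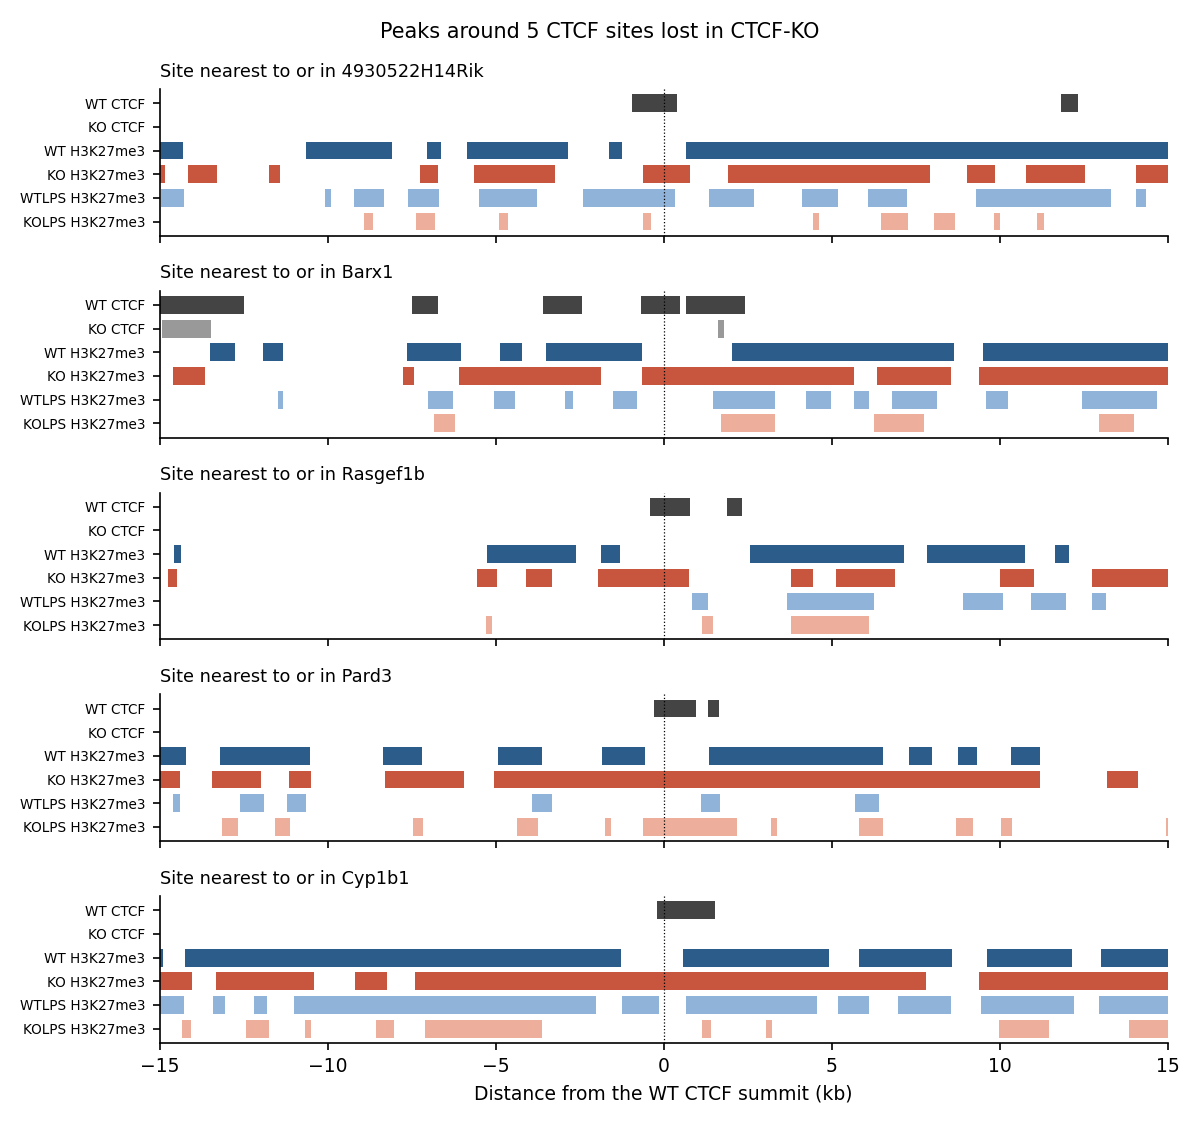
Called peaks of CTCF and H3K27me3 around 5 CTCF sites without a CTCF peak in CTCF-KO, against the distance from the WT CTCF summit (kb); each bar is 1 called peak. The sites were chosen for a WT gap at the summit (dotted line) where KO covers the 500 bp on each side. The lists after LPS show the same order at Pard3. Beside the Barx1 site, a second WT CTCF peak is overlapped by a KO CTCF peak.

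Chromosome X carried little H3K27me3 in these lists. Peaks covered 0.301% of it in WT and 0.199% in KO, against 3.48% to 6.90% of each autosome in WT and 3.03% to 6.97% in KO. H3K4me3 peaks on X numbered 589 and 640, so the chromosome was not missing from the files. H3K4me3 peaks on chromosome Y numbered 23 in WT and 3 in KO. Marrow came from mice of both sexes, and their share in each list is not given in the sources used here. Whether the sex make-up differed between WT and KO, and its part in the cover of chromosome X, was not tested.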

How the data were processed

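ChIP-seq was performed on sonicated chromatin of CD11c+ BMDCs with an antibody against H3K27me3 (Abcam), with tagmentation-based libraries sequenced as paired ends. The authors aligned reads to mm10, removed duplicates and called peaks with MACS2. The submitters' processing notes name BWA 0.7.12, Picard 1.77 and MACS2 2.1.2, while the study's methods name other versions. The methods describe peaks called per sample and replicate and also merged replicates, and the labels do not say whether each list is pooled. Each deposited list gives, per broad peak, a fold (a linear ratio to background), a −log10 p-value and a −log10 q-value; read counts are not used here, so depth was judged from the background behind these values (tolerance 0.002 in −log10 p, peaks below 25).

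From the lists, covered bases and overlaps were computed in Python 3.11.15 with numpy 2.4.6, pandas 2.3.3 and scipy 1.17.1 by interval arithmetic that was tested on simulated intervals. Overlap meant at least 1 bp. Gene starts came from GENCODE vM21 (the start of the longest spliced transcript, 21938 protein-coding genes) and sequences from GRCm38.p6, whose chromosome lengths hold every peak. Groups came from the sample titles. No test between conditions was possible with 1 list each, and 4 input samples, which have no list, were left out. Promoters were named as the 10 largest differences per direction and, per gene list, up to 6 marked in 1 condition and up to 4 in both, by covered bases; domains were named by width, and edges by the cover 5 kb beyond an edge with a CTCF peak absent in KO. The regions, gene lists and comparisons were chosen with earlier results of these data known, and the readings at CTCF summits and in gaps were added after the values were seen. Some genes of the lists are not reported here by name.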

Additional observations from a re-analysis of the deposited data

How the results depend on the processing

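Alternatives were a −log10 p of at least 3.47 in both lists (the highest of the 4 lists' lowest values), the 20000 peaks with the highest −log10 p, leaving out chromosomes X and Y, and joining peaks under 3 kb apart, with further ones per result. Of 88 alternative values none changed direction, but only the ratio of covered bases and the differences could do so. Shares, promoter counts and the Jaccard index have no direction to change. The summit sets with negative differences after LPS were not among the 88. Shares and differences were set against the counting interval of the reported value, promoter counts against 1.5 times, and the ratio and the Jaccard index against equality at 3 digits. By these, 26 values stayed and 62 moved, of which 46 lay within 1.5 times of the reported value and 16 beyond; the cause was not tested beyond the fewer or wider peaks each alternative leaves. In that order, the KO to WT ratio of covered bases was 0.948, 0.928, 0.965 and 0.972, and the Jaccard index (shared over combined bases, 0.356 as reported) 0.372, 0.352, 0.357 and 0.482. The share of WT peaks overlapped in KO was 49.1% at the common minimum, 39.8% with 20000 peaks, 54.8% with joined peaks and 34.7% when at least 50% of the peak had to be covered, and that of KO peaks in WT 50.6%, 41.0%, 56.4% and 36.8%. Marked promoters numbered 2946 in WT and 3007 in KO with 20000 peaks, and 1973 and 2032 when at least 50% of the window had to be covered. The share of WT-marked promoters marked in KO was 78.9% at the common minimum, 71.0% with 20000 peaks, 79.6% within 1 kb, 85.1% for the starts of all transcripts and 76.0% for at least 50% of the window.

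The share of WT edges with a WT CTCF peak was 15.8% at the common minimum, 17.0% with 20000 peaks, 15.5% with joined peaks, 9.69% within 1 kb, 29.5% within 5 kb, 10.1% for the stronger 50% of CTCF peaks and 16.7% for peaks of over 5 kb, and that of KO edges 18.9%, 20.99%, 16.5%, 12.3%, 31.2%, 12.6% and 19.7%. In the same order, the difference in flank cover with and without CTCF was 10.7, 12.3, 10.5, 9.58, 4.10, 8.90 and 5.11 points for WT edges and -8.88, -10.6, -8.94, -10.03, -3.32, -9.75 and -8.68 points for KO edges. The stronger 50% of CTCF summits was covered more often in KO by 6.48 points, by 4.81 at the common minimum, 2.97 with 20000 peaks, 5.62 with joined peaks, 7.23 with 100 bp added on each side and 0.119 in the lists after LPS, where the difference over all summits was -0.862 points. The gap difference with and without CTCF, for KO gaps filled in WT, was -25.5 points at the common minimum, -31.4 with 20000 peaks and -29.0 after LPS, and for WT gaps filled in KO 5.68 points after LPS. Joined peaks leave no gap of up to 1 kb, so that value has no such alternative. The KO list after LPS holds 0.33 times the bases of its WT list. No paired analysis was possible because each condition has 1 list and the labels give no shared replicate numbers. Peaks near the threshold are limited by depth, since a background of about 1 fragment per base leaves weak regions undetected, not absent.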

Other observations

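In the olfactory receptor, keratin and vomeronasal receptor families, which are clustered in the genome, more promoters were marked in KO than in WT. Over all protein-coding genes 27.1% were marked in WT and 27.6% in KO, with 954 in WT alone and 1079 in KO alone. Other clustered families did not share this: Hox promoters numbered 39 in WT and 37 in KO, and clustered protocadherins 16 in each. Of 1135 olfactory receptor promoters 195 were marked in WT (17.2%) and 226 in KO (19.9%), below the share over all genes, 157 of them in both, 38 in WT alone and 69 in KO alone. Of 113 keratin promoters 28 were marked in WT (24.8%) and 40 in KO (35.4%), with 25 in both, 3 in WT alone and 15 in KO alone. Of 331 vomeronasal receptor promoters 22 and 24 were marked (6.65% and 7.25%), with 16 in both. The olfactory receptor, keratin and vomeronasal receptor families were picked after the values were seen. Their members lie in clusters where 1 domain can reach several promoters, and no test was made.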
